A study of Mus musculus with 6 samples.

Results

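The receptors and co-receptors through which cells read Wnt proteins were examined as 9 genes: the co-receptor genes Lrp5 and Lrp4, the receptor tyrosine kinase-like gene Ror2, and the Frizzled genes Fzd2, Fzd3, Fzd5, Fzd6, Fzd7 and Fzd8. They were chosen by name, with earlier results of these data known. Each was taken as its annotated span in the mm10 mouse genome plus 1000 bases on either side. In the part of the table used, 11419 annotated genes had at least 1 listed position, among them 8 of these 9, and 779 listed CpG positions lie in or beside them. The assay was reduced representation bisulfite sequencing, in which restriction fragments rich in CpG are sequenced after unmethylated cytosines have been converted, and the DNA came from organoids grown from the intestine of Apc Min mice. Organoids are small epithelial structures kept in a gel, and Apc Min is a truncating allele of Apc, the scaffold of the complex that degrades β-catenin. Both groups carried this genotype and were held in medium low in glutamine. The 3 DM-aKG replicates were treated with DM-aKG and the 3 control replicates had the control treatment; the title of the series names α-ketoglutarate, which TET dioxygenases need to oxidise methylated cytosine. The replicates are called biological, with no word on dose, treatment time, the mice or whether each replicate was a separate organoid line, so p-values measure the spread between these 6 libraries.

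Frizzled proteins are membrane receptors that bind Wnt through a cysteine-rich outer domain and signal through Dishevelled. In the canonical branch a Frizzled pairs with the co-receptors LRP5 or LRP6, the β-catenin destruction complex is held inactive, and β-catenin accumulates; in the intestine this branch maintains the crypt stem cells. ROR2 and several Frizzleds also act in β-catenin-independent branches, such as planar cell polarity. Methylation near a CpG-rich start site usually goes with silencing, while the bodies of genes are usually methylated whether or not they are transcribed.

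No listed position fell in the 250 bases upstream of those receptor genes whose start could be placed. In the other genes the strand is not annotated. Few listed positions lay within 1000 bases of a span end. There were only 11 at the higher-coordinate end of Lrp5, 2 at that of Ror2 and 1 at that of Fzd6. Ror2 is on the minus strand, so its 2 positions, 53286509 and 53286510, lie upstream of its start, beyond those 250 bases. They had values of 56% to 85% in the 6 libraries. The RefSeq promoter table (GRCm38.p6, the assembly of mm10) held 3 of the 9 genes, Fzd5, Fzd7 and Ror2, and their upstream bases are shown to make visible the CpG content that lies outside the measurements. The Fzd5 stretch (chr1:64737751-64738000, minus strand) holds 32 CpGs, that of Fzd7 (chr1:59481897-59482146, plus strand) 17, and that of Ror2 (chr13:53286125-53286374, minus strand) 24. In the lines that follow, read 5′ to 3′, capitals mark each CpG.
Fzd5: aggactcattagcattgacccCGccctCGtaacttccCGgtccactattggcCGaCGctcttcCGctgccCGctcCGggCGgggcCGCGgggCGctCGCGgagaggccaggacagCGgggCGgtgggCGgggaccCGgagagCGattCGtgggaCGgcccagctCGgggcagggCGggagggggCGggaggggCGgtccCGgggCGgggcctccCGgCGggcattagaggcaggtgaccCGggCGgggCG
Fzd7: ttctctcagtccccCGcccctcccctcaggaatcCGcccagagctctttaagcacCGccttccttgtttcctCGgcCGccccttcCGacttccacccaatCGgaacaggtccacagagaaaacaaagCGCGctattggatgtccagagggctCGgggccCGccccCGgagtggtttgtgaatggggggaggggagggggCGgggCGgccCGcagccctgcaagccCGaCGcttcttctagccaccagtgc
Ror2: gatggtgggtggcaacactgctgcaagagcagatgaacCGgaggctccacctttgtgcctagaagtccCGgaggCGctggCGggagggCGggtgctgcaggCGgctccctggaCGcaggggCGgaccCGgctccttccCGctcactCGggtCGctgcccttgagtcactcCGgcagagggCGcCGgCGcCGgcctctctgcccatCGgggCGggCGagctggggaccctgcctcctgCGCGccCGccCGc
The letters CCGG, which read the same on both strands and contain a CpG, are the cutting site of MspI, the enzyme commonly used for this assay; the labels do not name the enzyme. They occur 6 times in the Fzd5 stretch, 6 times in that of Ror2 and 1 time in that of Fzd7, and 48.0% of 14440 such promoter stretches on the same chromosomes hold them at least 1 time. A promoter without listed positions was the common case: of 3568 stretches with 17 CpGs or more, 97.5% had none. The lowest level above 0 in the table is 40%, and a 0 was treated as no value, so a position under 40% and a position that was not read look the same.

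Fzd5, which in mouse intestine is required for Paneth cell maturation, had no listed position anywhere in its span (chromosome 1, 64730558 to 64737750, 7193 bases) or in the flanks. No level can be given for it in any library. The other 8 genes had 19 to 317 listed positions each, and 7 of them had sites with a value in all 6 libraries, called complete sites here. They fall into 5 long genes with several coding exons, Lrp5, Lrp4, Ror2, Fzd3 and Fzd6, with spans of 32044 to 176808 bases, and the short Frizzled genes whose coding sequence lies in 1 exon, Fzd2, Fzd5, Fzd7 and Fzd8, with spans of 3346 to 7193 bases.

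The co-receptor and long receptor genes were highly methylated along their bodies, with nearly the same level in all libraries. Lrp5, the canonical Wnt co-receptor (chromosome 19, 3584825 to 3686585), had mean levels over its 120 complete sites of 92.9%, 93.5% and 92.5% in DM-aKG replicates 1 to 3, against 92.8%, 94.0% and 92.9% in control replicates 1 to 3. The groups overlapped, and DM-aKG minus control was -0.269 percentage points with a 95% interval from -2.51 to 1.98. Lrp4, which binds agrin at the neuromuscular junction and the Wnt antagonist sclerostin in bone (chromosome 2, 91457456 to 91513901), had 91.9%, 91.7% and 90.8% with DM-aKG and 93.1%, 91.9% and 91.3% in controls over 66 complete sites. These ranges overlapped as well, and the difference was -0.616 points (95% interval -3.01 to 1.77).

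Ror2, a receptor for Wnt5a in β-catenin-independent signalling (chromosome 13, 53109317 to 53286124), was the most densely sampled long gene, with 317 listed and 228 complete sites. Its level was 91.3%, 91.3% and 90.1% with DM-aKG and 90.9%, 91.2% and 91.0% in controls, so DM-aKG replicate 3 was the lowest library and the controls lay inside the range of the treated libraries. The difference was -0.129 points (95% interval -2.32 to 2.06). Fzd3, which acts in planar cell polarity and axon guidance (chromosome 14, 65192441 to 65262463), had 92.2%, 91.6% and 94.3% with DM-aKG and 90.6%, 92.5% and 92.0% in controls over 25 complete sites, a difference of 1.01 points (95% interval -1.81 to 3.84). Of those sites 2 lie inside the pseudogene Gm9086, and over the other 23 the difference was 0.261 points (limma adjusted p = 0.945). Fzd6, which orients hair follicles in mouse skin through planar cell polarity (chromosome 15, 39006149 to 39038192), had 94.8%, 94.7% and 94.0% with DM-aKG and 93.5%, 94.5% and 94.1% in controls over 40 complete sites. All the Fzd6 values lay within 1.30 points of one another, with a difference of 0.517 points (95% interval -1.66 to 2.69).

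The single-coding-exon Frizzled genes were less methylated and spread far more between libraries. Fzd2 (chromosome 11, 102604431 to 102608058), a receptor for Wnt5a among other Wnts, had 81.8%, 81.5% and 87.0% with DM-aKG and 90.4%, 80.9% and 81.0% in controls over 62 complete sites. Control replicate 1 and DM-aKG replicate 3 stood above the other 4 libraries, which lay within 1 point of each other, so the split did not follow the treatment. The mean was 83.4% ± 3.11 with DM-aKG and 84.1% ± 5.43 in controls (SD, n = 3 each), and the difference was -0.683 points (95% interval -7.98 to 6.61). Fzd8 (chromosome 18, 9212856 to 9216201), whose cysteine-rich domain is a structural model of Wnt binding, had 61.2%, 67.4% and 70.7% with DM-aKG and 80.5%, 66.6% and 62.2% in controls over 27 complete sites. Control replicate 1 was again the highest library, and the remaining controls lay inside the range of the treated ones. The mean was 66.4% ± 4.81 with DM-aKG and 69.8% ± 9.53 in controls (SD, n = 3 each), a difference of -3.33 points (95% interval -15.4 to 8.78).

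**Figure D1:**
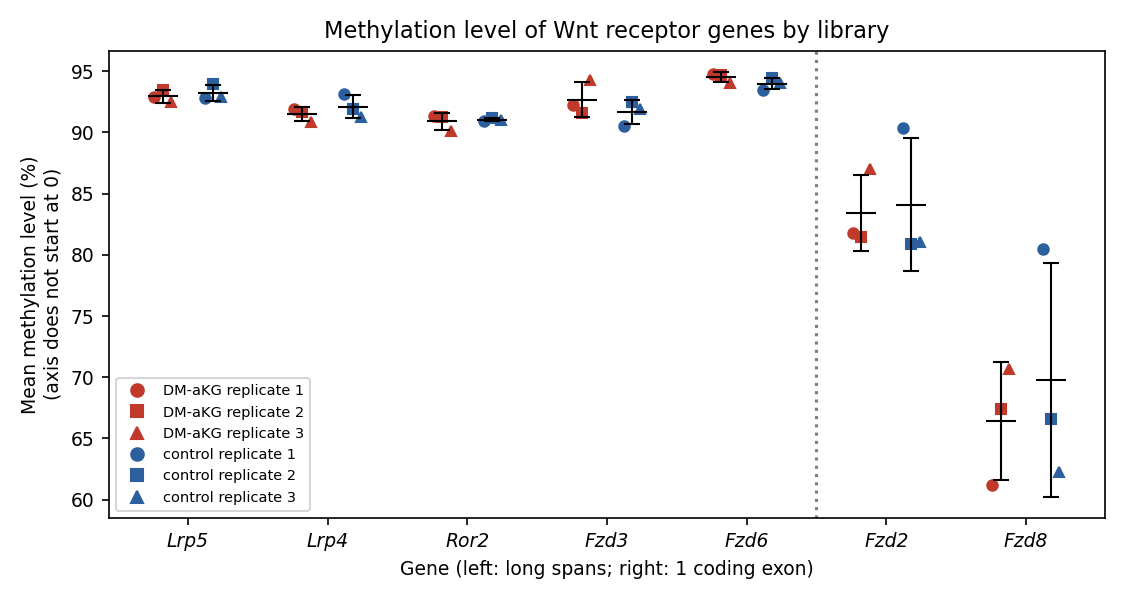
Methylation level averaged over complete sites (%, on a vertical axis that does not begin at 0) for the 7 genes with such sites (horizontal axis). Points are libraries, and black bars give group means with SD (n = 3). The 5 long genes stay between 90.1% and 94.8% in every library, while Fzd2 and Fzd8 lie lower and control replicate 1 is the highest library in both.

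By limma on log2 odds of the gene level with Benjamini-Hochberg adjustment over 9197 gene spans, none of the 7 genes passed an adjusted p of 0.05 or an unadjusted p of 0.05, with adjusted p from 0.813 for Fzd3 to 0.974 for Ror2. Over all gene spans 0% passed the adjusted threshold and 6.23% the unadjusted one. The log2 odds difference was 0.19 ± 0.20 (SE) for Fzd3 and -0.25 ± 0.36 for Fzd8. DM-aKG minus control was negative in 5 and positive in 2 of the 7, with a median of -0.269 points, beside a median of 0.733 points over all gene spans, of which 33.1% were negative. The groups overlapped in all 7, whereas they lay apart in 13.8% of all gene spans, 11.3% with DM-aKG above and 2.53% with DM-aKG below the controls.

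The contrast of the long genes with Fzd2 and Fzd8, taken as gene means, was one of level and of spread between libraries. Averaged over genes, the 5 long genes stood at 92.6%, 92.5% and 92.4% in DM-aKG replicates 1 to 3 and at 92.2%, 92.8% and 92.2% in control replicates 1 to 3. Fzd2 and Fzd8 together stood at 71.5%, 74.5% and 78.9% with DM-aKG and at 85.4%, 73.8% and 71.6% in controls. The long genes were thus higher in each library. Of 479 complete sites in the long genes 89.8% had a mean of 80% or more, as did 53.9% of 89 in Fzd2 and Fzd8, and in Fzd8 alone it was 5 of 27.

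The range over the 6 libraries was 1.18 to 3.72 points in the long genes, 9.48 in Fzd2 and 19.3 in Fzd8. Fzd2 and Fzd8 each had 1 run of listed positions with gaps of at most 500 bases. The long genes held 3 to 35 such runs or lone positions, and their means average over those with complete sites. Single runs there varied more or less widely. In Lrp4 the run from 91476589 had 67.6% to 88.6% over the libraries, and that from 91477562 had 93.9% to 96.3%. Among 3814 gene spans with 20 or more complete sites the median range was 3.89 points. That of Fzd2 exceeded 93.4% of them and that of Fzd8 99.8%. Among spans within 5 points of the same level, the range of Fzd2 exceeded 89.1% of 1565 and that of Fzd8 93.8% of 32. Both ranges had control replicate 1 at their upper end. Without that library they were 6.11 points in Fzd2 and 9.48 in Fzd8, above 85.5% of 1286 and 81.2% of 16 spans of like level. The medians of short and long spans were alike: 494 spans under 10 kb had a median level of 89.1% and a median range of 4.08 points, and 2323 spans over 30 kb had 89.0% and 3.90. A level under 85%, as in Fzd2 and Fzd8, was found in 25.1% of the short and 25.9% of the long spans. The members are few and were chosen with earlier results known, so these figures describe them and carry no test.

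Control replicate 1 was the highest library in Fzd2 and Fzd8 and, among the long genes, in Lrp4, while its mean over all 272327 complete sites, 86.7%, was the lowest of the 6. It was the highest library in 16.2% of all gene spans tested, and in 10.9% of 954 with 20 or more sites and a level under 85%. Without it the difference was 2.45 points for Fzd2 and 2.02 for Fzd8, with the opposite sign in both (limma adjusted p = 0.940 and 0.950). What sets this library apart at these genes was not tested.

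Within Fzd2 and Fzd8 the level differed along the gene. All 96 listed positions of Fzd2 formed 1 cluster between 102605641 and 102606570. The 24 complete sites among the 48 positions at lower coordinates averaged 77.9%, 74.5% and 85.6% with DM-aKG and 87.5%, 76.7% and 76.1% in controls. The 38 complete sites among the 48 positions at higher coordinates averaged 84.2%, 85.9% and 87.9% with DM-aKG and 92.2%, 83.6% and 84.2% in controls, so each of the 6 libraries was higher there. Fzd8 showed the same direction over 52 listed positions between 9214637 and 9215040. Its 13 complete sites at lower coordinates averaged 57.3% ± 5.98 with DM-aKG and 62.8% ± 11.1 in controls (SD, n = 3 each), and its 14 at higher coordinates 74.9% ± 5.99 and 76.3% ± 8.86. The excess of control replicate 1 was spread over many sites: at 27 of 62 complete sites of Fzd2 and 11 of 27 of Fzd8 it lay above all 5 other libraries.

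**Figure D2:**
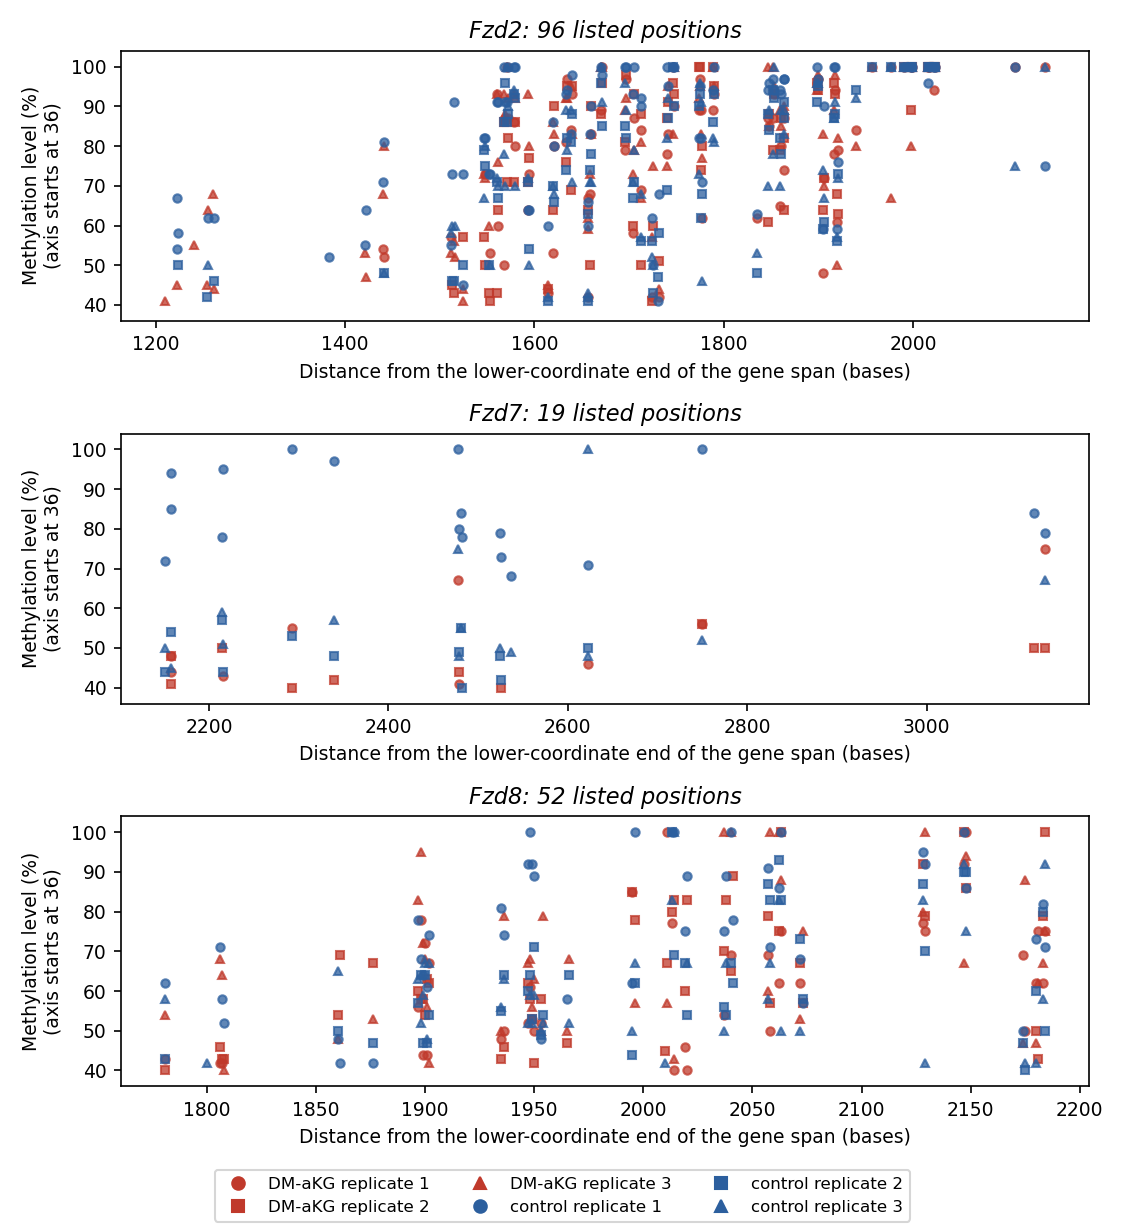
Methylation level (%, vertical axis, starting at 36) of each listed position with a value in Fzd2, Fzd7 and Fzd8, against its distance in bases from the lower-coordinate end of the gene span, with 1 marker for each library. Levels are on average higher toward the right in Fzd2 and Fzd8, without a steady rise. Control replicate 1 lies high in Fzd7, and DM-aKG replicate 3 has no point in Fzd7.

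Fzd7, a Wnt receptor of mouse intestinal stem cells (chromosome 1, 59482147 to 59486955), differed in which positions had a value at all. Of its 19 listed positions, 9, 10 and 0 had a value in DM-aKG replicates 1 to 3, against 18, 12 and 14 in control replicates 1 to 3. The groups did not overlap, and 3 positions had a value in all 3 controls and in no DM-aKG library, as did 0.459% of all listed positions. The mean number was 6.33 ± 5.51 with DM-aKG and 14.7 ± 3.06 in controls (SD, n = 3 each; exact two-sided permutation p = 0.1, the lowest value this number of libraries can give, which is above 0.05). Among 7373 gene spans with 10 or more listed positions, all DM-aKG libraries had fewer valued positions than all controls in 7.08% and more in 2.94%. Leaving out DM-aKG replicate 3 gave a difference of -5.17 positions in place of -8.33, and leaving out control replicate 1 gave -6.67.

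The 19 positions lie between 59484298 and 59485279, that is 2151 to 3132 bases downstream of the annotated start of Fzd7. Where a value was given it averaged 52.8% and 46.1% in DM-aKG replicates 1 and 2, against 84.3%, 48.7% and 57.6% in control replicates 1 to 3. Control replicate 1 had a lowest value of 68%, whereas 40 of the 45 values in the other libraries were under 60%, near the limit of 40% under which no level is recorded. No Fzd7 position had a value in all 6 libraries, as in 48 of the 7373 gene spans, so the gene has no complete site and no tested level. With each 0 counted as a level, its mean was 25.0%, 24.3% and 0% with DM-aKG and 79.8%, 30.7% and 42.4% in controls, and the limma adjusted p was 0.545.

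The lack of values in DM-aKG replicate 3 did not extend to the surroundings of Fzd7. At the 11 listed positions within 20000 bases of Fzd7 but outside its span and flanks, each of the 6 libraries had a value at all 11, with means of 98.6%, 95.5% and 98.1% with DM-aKG and 96.1%, 95.5% and 95.7% in controls. A level under 40% and a lack of reads at Fzd7 cannot be told apart in this table. In all, 5 of the 7373 gene spans with 10 or more listed positions had no value in DM-aKG replicate 3.

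**Figure D3:**
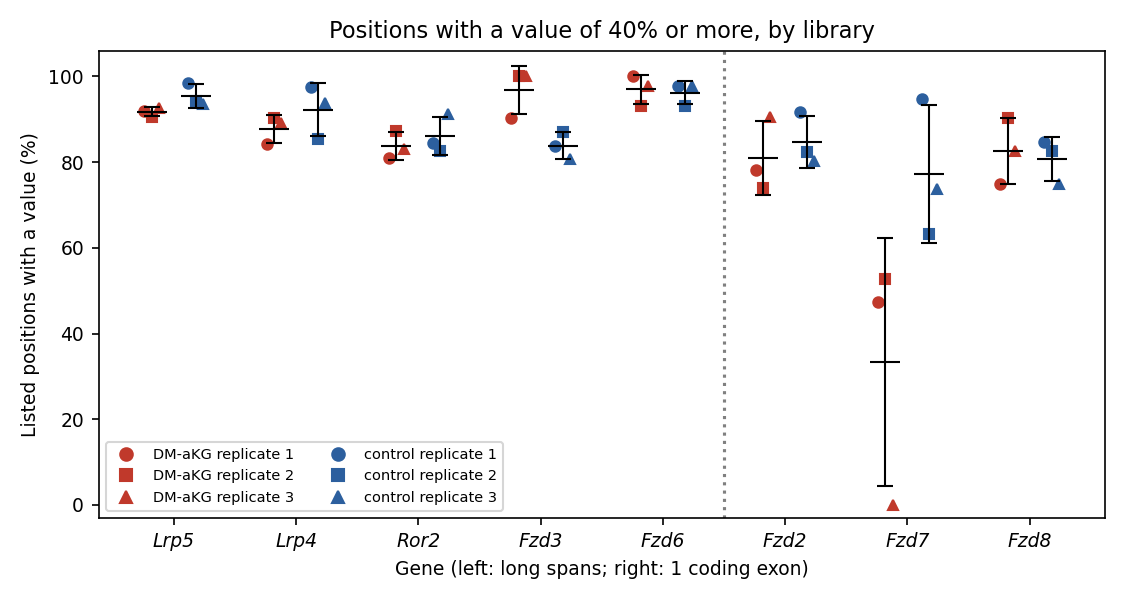
Share of listed positions with a value (%, vertical axis) for the 8 genes with listed positions (horizontal axis); points are libraries, and black bars give group means with SD (n = 3). The groups lie apart in Lrp5, Fzd3 and Fzd7, and DM-aKG replicate 3 has no value in Fzd7.

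The number of valued positions separated the groups in 2 further genes, in opposite directions. Lrp5 had 127, 125 and 128 valued positions of 138 with DM-aKG and 136, 130 and 129 in controls. The mean difference was -5 positions (exact two-sided permutation p = 0.1), and it was -2.83 without control replicate 1. With a flank of 2000 bases, or with each count divided by the share of all positions valued in its library, the Lrp5 groups overlapped. The 9 Lrp5 positions with no value in any DM-aKG library lay in 4 clusters between 3610238 and 3651044, and 9, 5 and 4 of them had a value in control replicates 1 to 3. Those control values were 75% to 100%.

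Fzd3 had 28, 31 and 31 valued positions of 31 with DM-aKG and 26, 27 and 25 in controls, 4 more on average (exact two-sided permutation p = 0.1). All of this came from 8 positions between 65207294 and 65207526, of which 5, 8 and 8 had a value with DM-aKG and 3, 4 and 2 in controls, while the remaining 23 positions had a value in every library. Those 8 positions lie inside the annotated pseudogene Gm9086, so what they show cannot be told apart from that pseudogene. The site there with the smallest p, at 65207307, was at 56%, 60% and 65% with DM-aKG and at 43%, 46% and 41% in controls, with no overlap (limma adjusted p = 0.669).

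The other genes had overlapping numbers of valued positions. Lrp4 had 69 to 74 with DM-aKG and 70 to 80 in controls, Ror2 257 to 277 and 262 to 289, and Fzd6 41 to 44 and 41 to 43. Fzd2 had 75, 71 and 87 of 96 with DM-aKG and 88, 79 and 77 in controls, so the 2 libraries with the highest level there also had the most values. Fzd8 had 39, 47 and 43 of 52 with DM-aKG and 44, 43 and 39 in controls. In Fzd8 2 positions and in Fzd3 1 had a value in all DM-aKG libraries and in no control, as did 0.314% of all listed positions. Exact two-sided permutation p-values for the 5 genes with overlapping numbers lay between 0.4 and 1.

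The layout of missing values differed from gene to gene, within the long genes as well as within the short ones. A cluster here is a run of listed positions with gaps of at most 500 bases, or a lone position, and the 5 long genes held 64 of them. Of 415 missing values in the long genes, 31.8% lay in clusters where that library had no value at all. By gene this share was 45.3% in Lrp5, 35.7% in Ror2 and 12.2% in Lrp4, and it was 0% in Fzd3 and Fzd6. In Fzd7 it was 37.3%, all from DM-aKG replicate 3. Fzd2 and Fzd8 had 1 cluster each, with 99 and 57 missing values, all in libraries that had values elsewhere in that cluster. In Fzd2 some of these lay in runs at the ends of the cluster. Values at positions missing in some library averaged 62.8% in Fzd2, against 83.8% at its complete sites, 62.9% in Fzd8, against 68.1%, and 66.9% in Fzd3, against 92.2%. In Ror2 they averaged 89.1%, against 91.0%, in Lrp5 84.7%, against 93.1%, in Lrp4 84.1%, against 91.8%, and in Fzd6 86.7%, against 94.3%. Values were thus lower at such positions in each of these 7 genes. Listed positions 1 base apart are the opposite strands of a CpG or, in runs such as CGCG, cytosines of neighbouring CpGs. Such pairs differed by 4.27 to 7.73 points on average in the long genes and by 9.72 in Fzd2, 13.5 in Fzd8 and 15.4 in Fzd7.

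Single sites followed the same picture. Of the 568 complete sites in the 7 genes, 256 were higher and 262 lower with DM-aKG and 50 equal. By limma 1 site passed the adjusted threshold, beside 0.149% of all 272327 sites, and 17 (2.99%) had an unadjusted p under 0.05, beside 5.25% of all sites. All DM-aKG libraries lay above all controls at 10 sites and below them at 10, beside 4.63% and 2.50% of all sites. The site that passed lies in Ror2 on chromosome 13 at 53146695, with 100% in all 3 DM-aKG libraries and 93%, 93% and 92% in control replicates 1 to 3 (limma adjusted p = 0.0351). It passed without any one control and did not pass without any one DM-aKG replicate (adjusted p = 0.0598 to 0.0747), on untransformed levels (0.593), with an offset of 0.1 (0.317) or with a replicate block (0.789). The position 1 base away, 53146696, was at 92%, 90% and 95% with DM-aKG and at 88%, 98% and 88% in controls. The groups overlapped there. Without control replicate 1, 5 sites in the receptor genes passed, and without control replicate 2 there were 2.

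The other sites named had the smallest p in their gene and direction, and none passed. In Fzd6 a site at 39031457 was at 92%, 96% and 90% with DM-aKG and at 100% in all 3 controls (limma adjusted p = 0.110). The position 1 base from it, 39031458, was at 100%, 96% and 100% with DM-aKG and at 98%, 97% and 100% in controls. In Fzd2 a site at 102606025 was at 73%, 77% and 80% with DM-aKG and at 64%, 54% and 50% in controls (limma adjusted p = 0.625). The most negative difference, -34.3 points, was at 9214870 in Fzd8, where DM-aKG libraries had 40%, 83% and 43% and controls 100%, 69% and 100% (limma adjusted p = 0.800), with overlapping groups. In Lrp5 the sites at 3590977 and 3643880 differed by 1.67 and -4 points, and in Lrp4 those at 91497006 and 91477575 by 2 and -5 points. Differences under 5 points made up 79.2% of sites in Lrp5 and 96% in Fzd3, and 58.1% in Fzd2 and 25.9% in Fzd8.

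**Figure D4:**
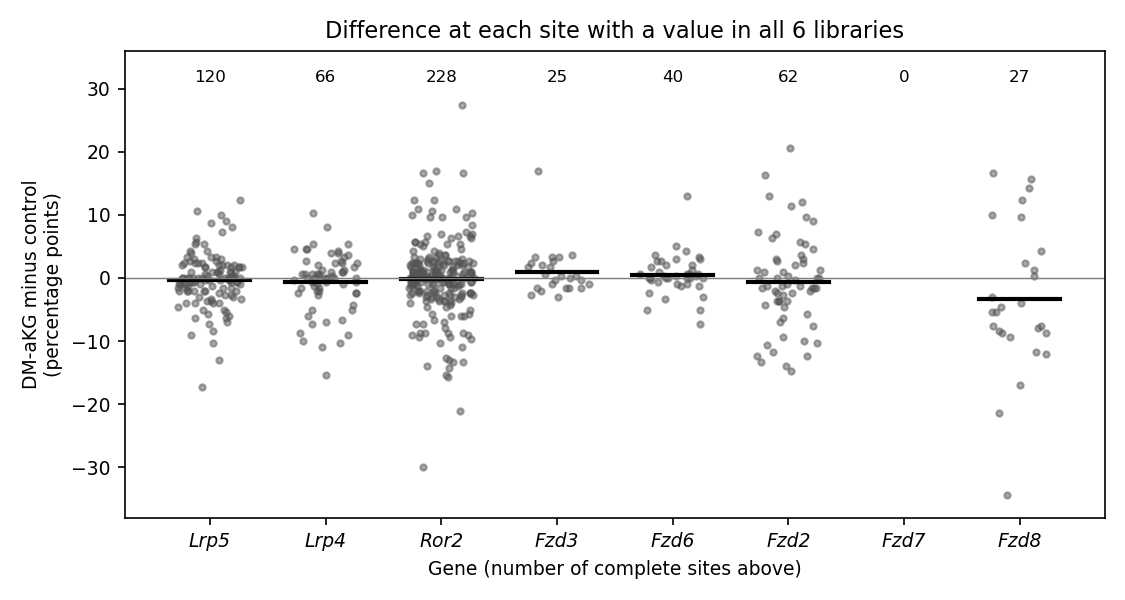
Difference in methylation level, DM-aKG minus control (percentage points, vertical axis), at each complete site of the 8 genes with listed positions (horizontal axis), with a black line at the mean of each gene and the number of sites above it. The 568 sites spread on both sides of 0, from -34.3 points in Fzd8 to 27.3 in Ror2.

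Within the long genes, clusters of sites were also compared, since 1 gene mean can hide opposite differences. Of 30920 clusters in the table with at least 3 complete sites, 41 lay in the 7 genes, 18 higher and 23 lower with DM-aKG. By limma none of the 41 passed the adjusted threshold, as in 0% of all clusters, and 1 had an unadjusted p under 0.05, beside 5.43% of all. That cluster, 13 sites in Ror2 at chromosome 13, 53128146 to 53128314, had 98.1%, 96.9% and 98.2% with DM-aKG and 89.2%, 92.0% and 93.8% in controls. All treated libraries lay above all controls, by 6.08 points on average (limma adjusted p = 0.842). The difference was uneven over its 13 sites. Site 53128249 was at 100% in all DM-aKG libraries and at 50%, 80% and 88% in controls. The position 1 base from it, 53128248, was at 95%, 89% and 93% with DM-aKG and at 95%, 93% and 97% in controls. Site 53128307 was at 100% in every library. The groups also lay apart in 2 Lrp4 clusters, 1 in each direction, and all DM-aKG libraries lay above all controls in 8.71% and below them in 2.54% of all clusters. Elsewhere in Ror2 the 6 sites from 53154019 had 88.7%, 81.2% and 75% with DM-aKG and 93.8%, 89.8% and 83.7% in controls, a difference of -7.50 points with overlapping groups.

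**Figure D5:**
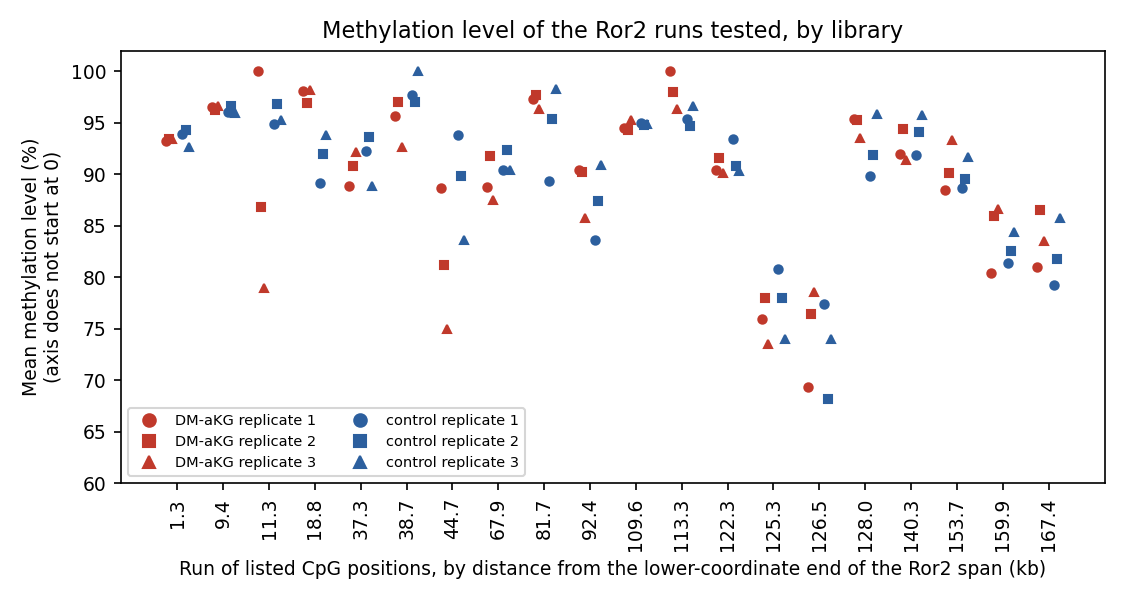
Average methylation (%, on a vertical axis that does not begin at 0) in the 20 Ror2 clusters with at least 3 complete sites, ordered along the gene by distance (kb) from its lower-coordinate end, with 1 point for each library. In the fourth cluster, which starts 18829 bases from that end, every DM-aKG point is higher than every control point, and in the other 19 the groups overlap.

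Other genes of Wnt reception and signal transfer gave no call either. Of a list of 56 such genes, 26 could be tested; 1 symbol was not found in the annotation, and the others lay outside the part of the table used or had under 3 complete sites. By limma none of the 26 passed the adjusted threshold or an unadjusted p of 0.05, 15 were higher and 11 lower with DM-aKG, and the median difference was 0.352 points, beside 0.733 over all gene spans. Ptk7, a Wnt co-receptor of planar cell polarity, was at 87.7% ± 0.378 with DM-aKG and 85.4% ± 1.95 in controls (SD, n = 3 each), with groups that did not overlap. Vangl2, a core polarity protein, was at 94.0% ± 0.717 and 92.1% ± 1.70, and Tmem198, which binds LRP6, at 91.5% in all 3 DM-aKG libraries and 89.5%, 90.6% and 89.9% in controls, again without overlap. On the other side, Tcf7, a transcription factor partner of β-catenin, was at 86.3% ± 0.557 with DM-aKG and 88.0% ± 1.24 in controls, also without overlap. The difference was -2.61 points for Axin2, a feedback inhibitor, and -2.01 for Lgr5, the R-spondin receptor of crypt stem cells, with overlapping groups. Without DM-aKG replicate 3 these differences were -0.737 for Axin2 and -0.694 for Lgr5, and leaving out control replicate 1 gave -0.715 for Lgr5. Tcf7 differed by -1.69 points, which became -0.0598 with a flank of 500 bases. All DM-aKG libraries lay above the controls in 2 and below them in 1 of the 26, beside 11.3% and 2.53% of all gene spans, so this count is near that of genes in general. The smallest limma adjusted p of the 26 was 0.764.

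Some sites were shared with other annotated genes. The 11 Lrp5 positions within 1000 bases of its higher-coordinate end lie in the lncRNA gene Gm36672, and 2 Ror2 positions lie in the lncRNA gene Gm33574. No listed position of Ror2 fell in Gm52058, a lncRNA gene inside its span, nor of Fzd6 in Gm26704 or of Fzd3 in the pseudogene Gm52141.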

How the data were processed

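Per the labels, 6 libraries were made from genomic DNA, 3 with DM-aKG and 3 controls. The deposited table gives a percent methylation per CpG position and library, rounded to whole numbers; per the submitters' processing notes the build was mm10 and CASAVA 1.8 and Novoalign 3.08.02 were named, with roles and methylation caller not given in the sources used here. No coverage is given, so depth is unknown and no coverage minimum was applied. The start column was read as counting from 1, since 3445 of 3449 positions inside RefSeq promoter sequences then fall on a CpG. Of 813850 rows, only those before the point where the libraries fall out of register were used, which covers chromosomes 1, 2, 10 to 19 and 3 up to 87947903. Each library had a value at 85.2% to 86.0% (DM-aKG) and 83.7% to 88.6% (control) of these rows, and 272327 sites were complete.

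Gene values are means over complete sites of the span with 1000 flanking bases, with at least 3 sites. The tests of genes, sites and clusters used limma (version 3.58.1, R 4.3.3), applied to the log2 odds of each level after adding 0.01. The model held treatment as its sole term, and p-values were adjusted by Benjamini-Hochberg over all features, with a threshold of 0.05. The 95% intervals of differences in points come from limma on untransformed levels. Numbers of valued positions were compared with exact two-sided permutation tests over 20 assignments. The tests were tried on simulated data. Members and lists were chosen with earlier results of these data known, and the cluster test was added after the data were seen. Sites named are, per gene, those past the adjusted threshold or else, higher and lower, the one of smallest p; of the pathway genes, 3 in either direction by the same ranking.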

Additional observations from a re-analysis of the deposited data

How the results depend on the processing

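The number of gene spans past the adjusted threshold, 0 as reported by limma (573 at an unadjusted p under 0.05), was 1 on untransformed levels, 1 with an offset of 0.1, 1 with each library averaged over its own positions, 1 with at least 1 site and 7 with each 0 as a level; none was a receptor gene or one of the other Wnt pathway genes. It was 0 with flanks of 500 or 2000 bases, at least 5 sites, equalised library means, positions shared with other genes left out of the receptor genes (chosen after seeing the data), or any library left out. The cluster test, with 0 calls (1678 at an unadjusted p under 0.05), had 1 on untransformed levels. The site test, with 407 calls, had 0 on untransformed levels, 0 with an offset of 0.1, 0 without any one DM-aKG replicate and up to 1326 without control replicate 1; for sites in the receptor genes, 1 as reported, the counts were 0, 0 and 0 to 5.

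Whether the replicate numbers pair the libraries could not be settled, since deviations correlated weakly in every pair, from -0.0871 to 0.0903. Same-numbered deviations correlated at 0.0652, -0.0276 and 0.0306. DM-aKG replicate 1 correlated best with the control of its own number. DM-aKG replicates 2 and 3 correlated best with controls of another number (0.0379 with control replicate 1 and 0.0903 with control replicate 2). With the number as a replicate block, the gene and cluster tests had 0 calls and the site test 0, in the receptor genes too.

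The median difference of the 7 receptor genes, -0.269 points, was -2.03 with each 0 as a level, -1.32 with equalised library means, and -0.421 to 0.267 with single libraries left out. The mean difference of the long genes minus that of Fzd2 and Fzd8, 2.11 points, was -2.25 without control replicate 1, 0.331 without DM-aKG replicate 1, 0.515 over each library's own positions and up to 4.68 with other libraries left out. Signs changed for Ror2 (0.0862), Fzd3 (-0.975), Fzd6 (-0.227) and Tmem198 (-1.98) over each library's own positions, for Fzd3 (-0.0372) and Fzd6 (-0.534) with equalised library means, and for Vangl2 (-4.99) with each 0 as a level. Lgr5, at -2.01, was -0.345 over each library's own positions. With single libraries left out the differences ranged from -0.544 to 0.0958 for Lrp5, -1.03 to -0.109 for Lrp4, -0.335 to 0.257 for Ror2, 0.220 to 1.58 for Fzd3, 0.267 to 0.763 for Fzd6, -2.48 to 2.45 for Fzd2 and -7.11 to 2.02 for Fzd8, and those in valued positions from -13 to 0.667 for Ror2, -0.333 to 1.17 for Fzd6 and -1 to 3 for Fzd8. The causes were not tested. The number of genes whose valued positions separated the groups, 3, was 2 with a flank of 2000 bases or counts scaled by library, 3 with flanks of 0 or 500 bases, and 3 to 4 with single libraries left out. Without read depth, a level under 40% and a lack of reads cannot be told apart.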
